A study of Mus musculus with 6 samples.

Results

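The 10 genes described here encode the core of the NLRP3 inflammasome and of pyroptosis, namely Nlrp3, Pycard, Casp1, Casp4, Il1b, Il18, Il1a, Gsdmd, Nek7 and P2rx7. They were taken by symbol from the 23282 rows of the deposited count tables, where each of the 10 had a row of its own. RNA was sequenced from liver sinusoidal endothelial cells (LSECs), the fenestrated endothelium that lines the liver's capillary bed, in 3 libraries from TXNIP-/- mice and 3 from wild-type (WT) mice. The TXNIP-/- mice lacked TXNIP throughout the body on a C57BL/6J background, and the WT mice were C57BL/6J. Both genotypes went through the same isolation, in which the liver was perfused with collagenase, non-parenchymal cells were separated on an Opti-Prep gradient and LSECs were captured with magnetic beads against CD146. The colony was kept on standard chow, and the study's methods describe isolated LSECs as being placed in endothelial growth medium, without saying whether or how long those sequenced here were cultured. Age, sex and any treatment are not given for these libraries. The study gives as many mice as libraries for each genotype, but the labels tie no library to a mouse, so the p-values measure the spread between libraries.

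An inflammasome is a protein platform that turns a danger signal into protease activity. NLRP3 senses disturbance of the cell, such as the potassium loss that follows when ATP opens the P2X7 channel. With NEK7 bound to it, NLRP3 gathers the adaptor ASC (encoded by Pycard), which recruits caspase-1. Caspase-1 matures interleukin-1β (IL-1β) and IL-18 and cuts gasdermin D, whose freed part forms pores through which the cytokines leave and the cell can die by pyroptosis, while caspase-11 (encoded by Casp4 in the mouse) cuts gasdermin D after sensing lipopolysaccharide in the cytosol. Much of this biology was worked out in macrophages, in which NLRP3 and pro-IL-1β must first be induced through NF-κB. TXNIP, the protein missing here, binds thioredoxin and has been described as a partner of NLRP3 under oxidative stress.

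The genes lie on 7 chromosomes, with positions given below for GENCODE M21 on GRCm38 (mm10), and the promoters of the lowest member, of the highest and of Casp4, the one member with a match to the NF-κB motif searched, are shown for their contrast in letters. RefSeq promoters of assembly GRCm38.p6 (250 bases before a start to 50 after it) were given for 9 of the 10 members, with 12 starts in all. Both strands were searched for 3 motifs. TATAAA stood in 13.6% of all 32851 promoters of that length, an NF-κB motif (GGG, any 2 bases, TTTCC) in 1.63% and the gamma-activated site TTCNNNGAA in 8.3%. Capitals mark the matches in the sequences, which are written 5′ to 3′ on the strand of the gene.
Il1b, chr2:129371090-129371389, minus strand: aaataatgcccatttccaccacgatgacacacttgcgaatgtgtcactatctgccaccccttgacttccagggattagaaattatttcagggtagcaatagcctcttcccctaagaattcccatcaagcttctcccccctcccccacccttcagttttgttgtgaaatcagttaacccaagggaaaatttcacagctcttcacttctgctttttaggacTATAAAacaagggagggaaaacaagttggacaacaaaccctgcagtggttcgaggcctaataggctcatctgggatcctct
Casp4, chr9:5308599-5308898, plus strand: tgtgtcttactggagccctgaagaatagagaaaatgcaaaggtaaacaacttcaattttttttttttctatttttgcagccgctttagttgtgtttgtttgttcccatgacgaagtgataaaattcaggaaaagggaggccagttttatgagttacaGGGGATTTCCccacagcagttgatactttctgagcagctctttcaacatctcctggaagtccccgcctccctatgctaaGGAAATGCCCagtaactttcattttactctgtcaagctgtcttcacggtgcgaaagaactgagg
P2rx7, chr5:122643677-122643976, plus strand: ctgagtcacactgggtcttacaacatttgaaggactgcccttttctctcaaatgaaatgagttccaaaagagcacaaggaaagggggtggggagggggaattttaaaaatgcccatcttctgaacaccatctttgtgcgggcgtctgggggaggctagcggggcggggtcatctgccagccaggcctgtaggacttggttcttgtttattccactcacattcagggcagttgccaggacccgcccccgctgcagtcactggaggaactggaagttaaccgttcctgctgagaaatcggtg
The Il1b promoter held TATAAA on its own strand. The Casp4 promoter held the NF-κB motif once on each strand, and the P2rx7 promoter held none of the 3. Among the other members, TATAAA was found on the gene's strand in Il1a and on the opposite strand in Il18, TTCNNNGAA was in none, and no match overlapped another. The number of CpG dinucleotides in the 12 windows ran from 1 in Il18 to 23 in Nek7, where the median promoter held 7. These matches describe the letters in the windows and do not show that a factor was bound.

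The libraries carried 9147764 to 10193952 counts each. Txnip itself had 269, 216 and 191 counts in TXNIP-/- replicates 1 to 3 and 1901, 2019 and 1994 in WT replicates 1 to 3, or 24.2 ± 5.15 against 196 ± 13.3 CPM (counts per 1000000 of the normalized library total, mean ± SD, n = 3). This is a log2 fold change of -3.02 (SE 0.14; edgeR adjusted p = 6.94e-10), in the direction of the labels in all 6 libraries. All 15 LSEC markers listed were detected, led by Lyve1 at 2312 CPM. The 12 lymphocyte markers summed to at most 0.635 CPM in any library, with the B cell gene Cd79a at a mean of 0.155 CPM and the T cell gene Cd3e at 0 in all 6. The 11 neutrophil markers summed to at most 2.34 CPM, led by Cxcr2 (0.551 CPM) and S100a8 (0.530 CPM). WT replicate 3 stood apart from the other WT libraries. Its chi-square per degree of freedom over genes was 37.0 and 40.2 against WT replicates 1 and 2, while that pair had 3.93 and pairs of TXNIP-/- libraries had 8.32 to 9.57. Against the TXNIP-/- libraries WT replicate 3 had 13.3 to 17.1, whereas WT replicates 1 and 2 had 28.8 to 44.4. By this measure WT replicate 3 lay closer to the TXNIP-/- libraries than to those of its own genotype. Ribosomal Rn45s took 9.68% and 10.03% of counts in WT replicates 2 and 1 and 16.9% to 18.6% in the other 4 libraries. The chi-square was taken on raw counts with Rn45s kept in, so this split of the libraries enters it. The part of Rn45s in these distances was not tested.

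The first question was which of the members these LSECs expressed. By the mean over the 6 libraries, 7 of the 10 were above 1 CPM, where 49.5% of all rows were. They were P2rx7, Nek7, Casp4, Casp1, Gsdmd, Pycard and Il1a, and 6 of them were above 1 CPM in every library, the exception being Il1a. The cytokines Il18 and Il1b and the sensor Nlrp3 were below 1 CPM. A CPM of 3′ tag counts does not grow with transcript length, so levels can be set side by side between genes, although genes can still differ in how well their 3′ ends are captured.

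The ATP receptor stood far above the rest. P2rx7 averaged 179.8 CPM over the 6 libraries, more than 95.9% of all rows, and 5.21 times the next member, Nek7, at 34.5 CPM. Casp4 (21.5 CPM) and Casp1 (19.5 CPM) followed, then Gsdmd (6.67 CPM), Pycard (4.96 CPM), Il1a (2.16 CPM), Il18 (0.742 CPM), Nlrp3 (0.637 CPM) and Il1b (0.0534 CPM). The lowest library of P2rx7 was above the highest of Nek7, and the same held for Nek7 over Casp4 and for Casp1 over Gsdmd. Between all other neighbours in this order the library ranges overlapped, as for Casp4 and Casp1, or Il18 and Nlrp3. Such overlap does not show equal levels, since Pycard was above Il1a in each of the 6 libraries although their ranges overlapped. The channel and caspase genes were thus measured far above the sensor that gives the inflammasome its name and above Il1b, which encodes its best known product.

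**Figure D1:**
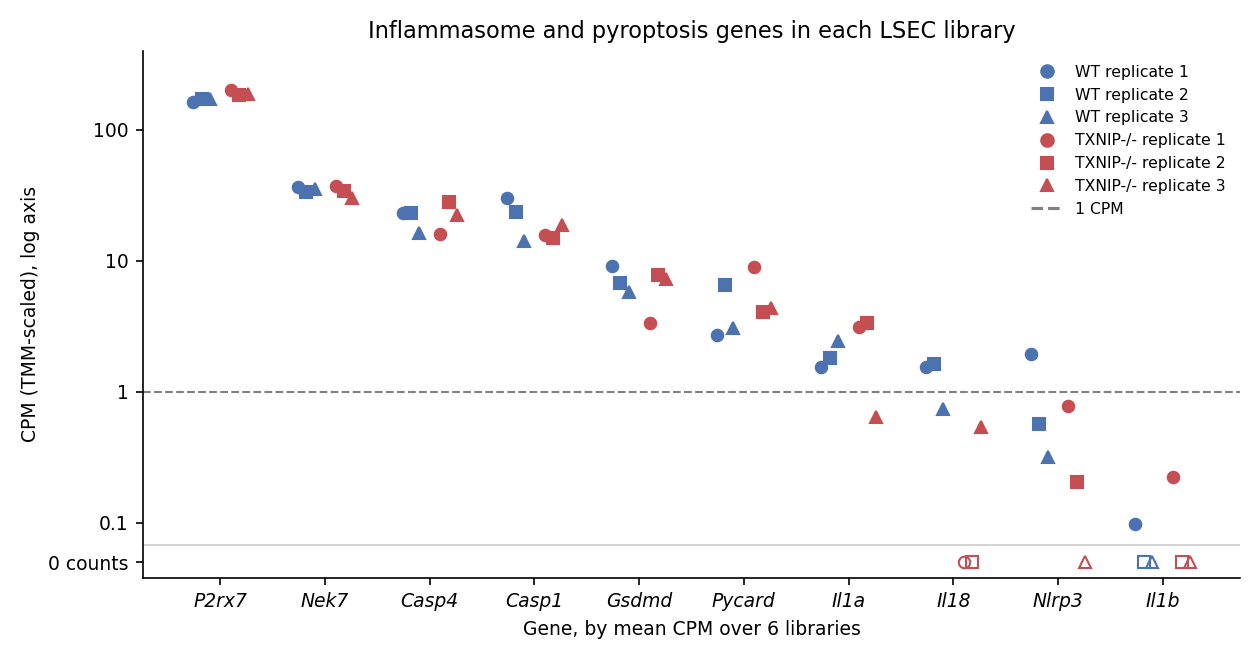
Level of each of the 10 members in each library, in CPM on a log scale, with WT and TXNIP-/- libraries in separate colours. P2rx7 lies highest at 163 to 199.98 CPM, Nlrp3 and Il18 lie near or under 1 CPM, and Il1b was counted in 2 libraries only.

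The second question was whether the members differed between the genotypes. None of the 7 members that passed the filter on low counts was called in TXNIP-/- against WT LSECs by edgeR's quasi-likelihood test at an adjusted p under 0.05, where 1.55% of the 11583 genes tested were called. None had an unadjusted p under 0.05 in this fit, against 11.5% of all genes. Casp1 did with no normalization factors (edgeR unadjusted p = 0.0473), with no filter on low counts (0.0312) and without WT replicate 3 (0.00308), as did P2rx7 (0.0469) without that library. DESeq2 and limma-trend also called none, and Il18, which DESeq2 kept and edgeR filtered out, was the single member with an unadjusted p under 0.05 by DESeq2. Of the 7 log2 fold changes 4 were positive and 3 negative, with a median of 0.08, where the median over all genes was -2.75e-05. The libraries of the genotypes did not overlap for 1 of the 7, P2rx7, where this held for 17.4% of all genes. With 3 libraries a genotype these tests leave wide intervals, which are given with each gene.

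**Figure D2:**
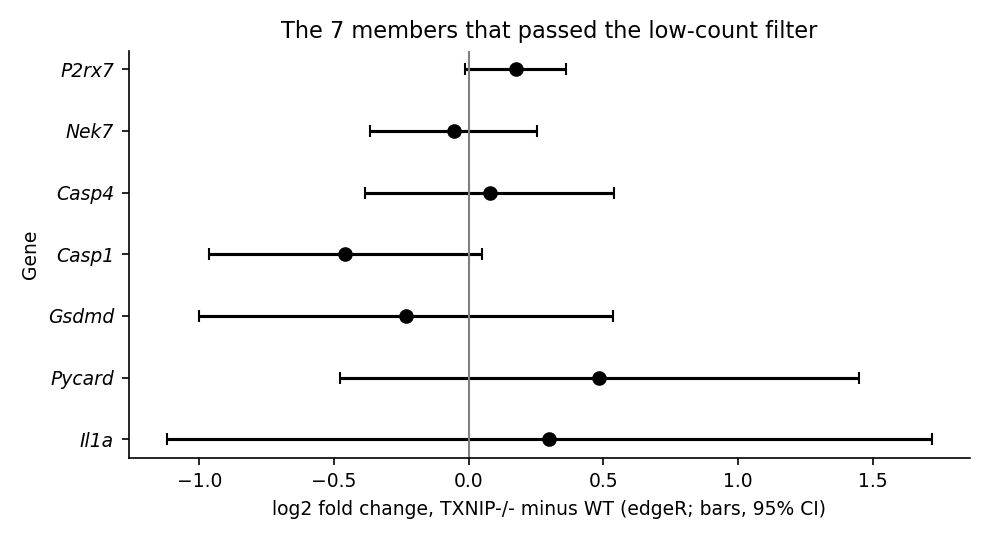
Log2 fold change of TXNIP-/- against WT for the 7 members tested, as points, with 95% confidence intervals as bars, from edgeR. All 7 intervals cross 0, from the narrow one of P2rx7 (-0.01 to 0.36) to the wide one of Il1a (-1.12 to 1.72).

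Among the sensor and its adaptors, Nlrp3 (chr11:59541568-59566956, plus strand) was close to the detection floor. Its counts were 7, 2 and 0 in TXNIP-/- replicates 1 to 3 and 20, 6 and 3 in WT replicates 1 to 3. TXNIP-/- replicate 1 and WT replicate 1 were the highest of their genotypes, and the genotypes overlapped. At 3 counts, the floor equals 0.286 to 0.335 CPM, a limit that covers counting error only. The level was 0.328 ± 0.405 CPM against 0.945 ± 0.877 CPM (SD, n = 3), and an exact two-sided permutation test gave p = 0.4. Of its 38 counts 9 came from TXNIP-/- LSECs (23.7%, exact 95% confidence interval 11.4% to 40.2%), an interval that treats counts as independent and so leaves out the spread between libraries. With no filter on low counts edgeR gave an adjusted p of 0.778 and DESeq2 one of 0.857.

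Nek7 (chr1:138482875-138620141, minus strand), the kinase that bridges NLRP3 subunits, was the steadiest member below P2rx7. It was at 37.2, 34.0 and 30.3 CPM in TXNIP-/- replicates 1 to 3 and at 36.4, 33.7 and 35.3 CPM in WT replicates 1 to 3. The WT range lay within that of TXNIP-/- LSECs, and the log2 fold change was -0.06 (SE 0.15, 95% confidence interval -0.37 to 0.25; edgeR adjusted p = 0.935). Pycard (chr7:127989708-127993867, minus strand), which encodes the adaptor ASC, was at 8.93, 4.08 and 4.38 CPM in TXNIP-/- replicates 1 to 3. It was at 2.73, 6.57 and 3.07 CPM in WT replicates 1 to 3. A single library in each genotype, TXNIP-/- replicate 1 and WT replicate 2, was well above the other libraries of its genotype, and the ranges overlapped. The log2 fold change was 0.49 (SE 0.46, 95% confidence interval -0.48 to 1.45; edgeR adjusted p = 0.770).

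The inflammatory caspases lie next to each other, with Casp1 at chr9:5298517-5307265 and Casp4 at chr9:5308828-5336783, both on the plus strand. Casp1, the protease of the inflammasome, was at 15.7, 14.8 and 18.8 CPM in TXNIP-/- replicates 1 to 3 and at 30.2, 23.3 and 14.2 CPM in WT replicates 1 to 3. WT replicates 1 and 2 were above every TXNIP-/- library, while WT replicate 3 was below all of them. The log2 fold change was -0.46 (SE 0.24, 95% confidence interval -0.97 to 0.05; edgeR adjusted p = 0.490). With WT replicate 3 as the single WT library it was 0.22, a value from 1 library against 3 that is given with no test. Without WT replicate 3 it was -0.70 (edgeR adjusted p = 0.0775).

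Casp4, which encodes the cytosolic lipopolysaccharide sensor caspase-11, was at a level whose range overlapped that of Casp1. Its levels were 16.0, 27.9 and 22.5 CPM in TXNIP-/- replicates 1 to 3 and 23.3, 23.2 and 16.4 CPM in WT replicates 1 to 3. Both genotypes held a library near 16 CPM and the ranges overlapped, with a log2 fold change of 0.08 (SE 0.22, 95% confidence interval -0.38 to 0.54; edgeR adjusted p = 0.937). Gsdmd (chr15:75862327-75867408, plus strand), the pore former, was at 3.35, 7.75 and 7.27 CPM in TXNIP-/- replicates 1 to 3 and at 9.05, 6.76 and 5.82 CPM in WT replicates 1 to 3. TXNIP-/- replicate 1 was the lowest of the 6, and the other libraries of both genotypes overlapped. The log2 fold change was -0.23 (SE 0.36, 95% confidence interval -1.003 to 0.54; edgeR adjusted p = 0.884).

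The cytokine genes and Nlrp3 had the lowest means of the members. Il1b (chr2:129364570-129371139, minus strand) had 2, 0 and 0 counts in TXNIP-/- replicates 1 to 3 and 1, 0 and 0 in WT replicates 1 to 3. No library reached the floor of 3 counts, so no difference was detectable at this depth and no fold is given. Its neighbour Il1a (chr2:129299610-129309972, minus strand), which encodes the alarmin form of IL-1, was higher. It had 28, 33 and 6 counts in TXNIP-/- replicates 1 to 3 and 16, 19 and 23 in WT replicates 1 to 3, or 2.38 ± 1.51 CPM against 1.93 ± 0.451 CPM (SD, n = 3). TXNIP-/- replicate 3 was the lowest library and the other 2 of that genotype were the highest. The log2 fold change was 0.30 (SE 0.67, 95% confidence interval -1.12 to 1.72; edgeR adjusted p = 0.919).

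Il18 (chr9:50554827-50581840, plus strand) gave the widest separation of the low members. It had 0, 0 and 5 counts in TXNIP-/- replicates 1 to 3 and 16, 17 and 7 in WT replicates 1 to 3, or 0.178 ± 0.309 CPM against 1.31 ± 0.491 CPM (SD, n = 3). The genotypes did not overlap, although TXNIP-/- replicate 3 and WT replicate 3 were only 2 counts apart. An exact two-sided permutation test gave p = 0.1, the smallest that 3 libraries against 3 allow. Of the 45 counts, 5 came from TXNIP-/- LSECs (11.1%, exact 95% confidence interval 3.71% to 24.1%), where equal levels would give 48.2%. As for Nlrp3, the interval treats counts as independent and leaves out the spread between libraries, so it is no test of the genotypes. With no filter on low counts edgeR gave an adjusted p of 0.518, and DESeq2 gave an unadjusted p of 0.0396 and an adjusted p of 0.461. Il18 overlaps Bco2 in the annotation, but no exon of another gene lay within the last 500 bases of its coding transcripts, nor of those of any other member.

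P2rx7 (chr5:122643911-122691432, plus strand), the ATP-gated channel, was the only one of the 7 tested members with no overlap between the genotypes. It was at 199.98, 183 and 189 CPM in TXNIP-/- replicates 1 to 3 and at 163, 172 and 172 CPM in WT replicates 1 to 3. Every TXNIP-/- library was above every WT library, by a small margin, and on the raw counts (1791, 1799 and 1765 against 1671, 1806 and 1627) the genotypes overlapped. The mean was 191 ± 8.48 CPM against 169 ± 5.44 CPM (SD, n = 3), 1.13-fold with a 95% confidence interval of 0.991 to 1.29. The log2 fold change of 0.17 (SE 0.09) had an edgeR adjusted p of 0.478.

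The CD146 capture could leave other liver cells in the preparation, and macrophages are a usual source of several of these transcripts. Of 18 markers of Kupffer cells (the resident liver macrophages) and other macrophages, 17 were tested, and 14 fell and none rose in TXNIP-/- LSECs, where 0.976% of all genes were called lower. The 18 markers summed to 345, 336 and 374 CPM in TXNIP-/- replicates 1 to 3 and to 878, 838 and 870 CPM in WT replicates 1 to 3. The genotypes were far apart on this sum, and WT replicate 3 was as high as the other WT libraries. None of the 18 was at 0 in all libraries, and the median log2 fold change of those tested was -1.48.

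The scavenger receptor gene Marco, the most abundant of these markers, fell from 175 ± 3.86 CPM in WT to 83.2 ± 7.12 CPM in TXNIP-/- LSECs (SD, n = 3; log2 fold change -1.07, SE 0.10; edgeR adjusted p = 5.23e-06). Cd68, a lysosomal protein gene of macrophages, fell by 0.75 on the log2 scale (edgeR adjusted p = 0.00351). Adgre1, which encodes F4/80, fell by 1.999 on the log2 scale with an edgeR adjusted p of 0.0495, a call lost without TXNIP-/- replicate 1 or 2 or WT replicate 1 or 2 (edgeR adjusted p = 0.152 to 0.210). Clec4f, which is specific to Kupffer cells, was at 7.17 ± 2.96 CPM against 15.9 ± 4.45 CPM (SD, n = 3; edgeR adjusted p = 0.0917).

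Il18 and Nlrp3 had lower means in the genotype with the lower marker sum, as had Casp1, Gsdmd and Nek7. The part of macrophage RNA in these levels was not tested. In WT replicate 3, where the markers were at 870 CPM, Casp1 (14.2 CPM), Gsdmd (5.82 CPM), Il18 (0.740 CPM) and Nlrp3 (0.317 CPM) were each at their lowest WT value. Nek7 was not, at 35.3 CPM between WT replicate 1 (36.4 CPM) and WT replicate 2 (33.7 CPM). The means of P2rx7, Pycard, Casp4 and Il1a were higher in TXNIP-/- LSECs. In bulk libraries fewer cells of a type and less RNA per cell cannot be told apart.

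**Figure D3:**
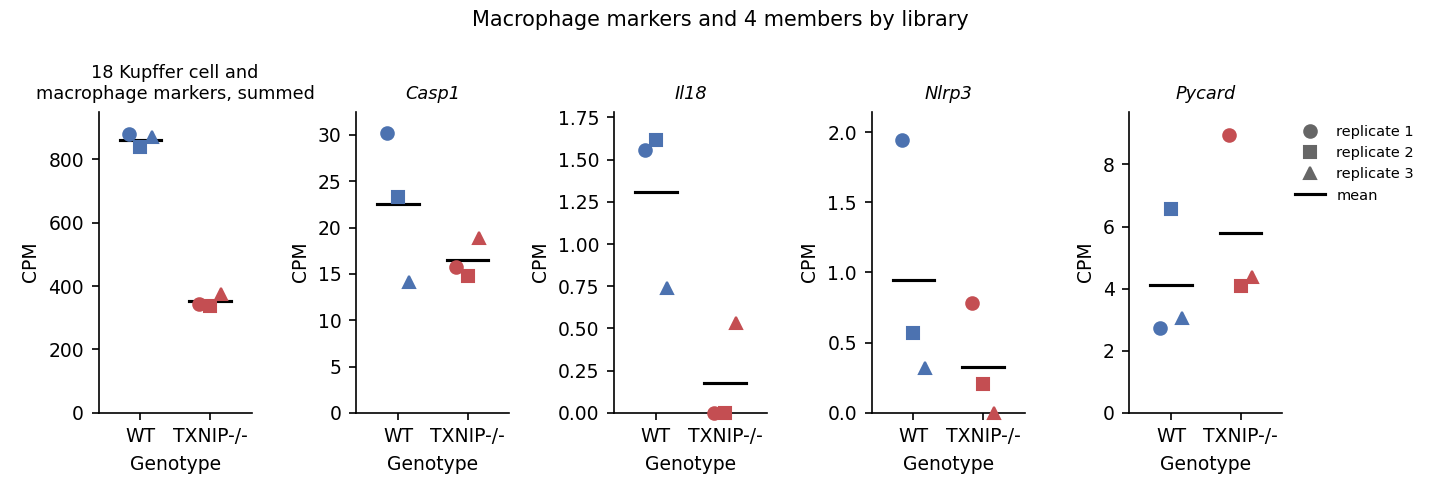
Summed CPM of the 18 Kupffer cell and macrophage markers, and CPM of Casp1, Il18, Nlrp3 and Pycard, by genotype, with a symbol for each replicate and a line at the mean of 3 libraries. The marker sum is 838 to 878 CPM in WT and 336 to 374 CPM in TXNIP-/- libraries, while the ranges of Casp1, Nlrp3 and Pycard overlap between genotypes.

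For the other cell types fewer markers were called. Of the 15 LSEC markers, 3 were called lower (Stab2 and, named after their values were seen, Stab1 and Mrc1), where 0.976% of all genes were. All 15 had negative log2 fold changes, with a median of -0.28. An edgeR unadjusted p under 0.05 was reached by 8 of them, against 11.5% of all genes. Their sums were 5438 to 5869 CPM in TXNIP-/- and 6259 to 8022 CPM in WT libraries. Stab2, a hyaluronan scavenger receptor gene of LSECs, was at 189 ± 5.36 CPM against 243 ± 11.1 CPM (SD, n = 3; log2 fold change -0.36, SE 0.09; edgeR adjusted p = 0.0448). That call was lost without any 1 of TXNIP-/- replicates 1 to 3 or without WT replicate 1 or 2 (edgeR adjusted p = 0.113 to 0.256), and with a replicate block (edgeR adjusted p = 0.135). Lyve1 was at 1475, 1642 and 1976 CPM in TXNIP-/- replicates 1 to 3 and at 3482, 3780 and 1520 CPM in WT replicates 1 to 3, so that WT replicate 3 lay within the TXNIP-/- range. The 9 dendritic cell and monocyte markers summed to 20.999 to 23.8 CPM against 21.2 to 28.6 CPM, led by Clec9a (10.1 against 15.2 CPM), with none of the 2 tested called. The 9 stellate cell and fibroblast markers summed to 38.1 to 49.6 CPM against 22.1 to 25.2 CPM, and of the 7 tested 1, the matrix gene Dcn, rose (30.6 ± 2.66 against 15.4 ± 1.55 CPM, SD, n = 3; edgeR adjusted p = 0.00497). The part of these cells in the members' levels was not tested.

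Around the members, 115 further genes of the pathway were looked up in 10 lists, and 78 of them could be tested. None was called by edgeR at an adjusted p under 0.05, and 9 had an unadjusted p under 0.05, which at 11.5% equals the share over all genes. DESeq2 and limma-trend called none of them. Of the 78, 37 had positive and 41 negative log2 fold changes, with a median of -0.03, and 13 did not overlap between the genotypes. Read against the shares over all genes, neither count stood out.

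Upstream of the inflammasome, none of the 14 genes of Toll-like receptor and NF-κB priming was called, and the list's median log2 fold change was -0.08. Rela, an NF-κB subunit gene, was at 190.1 CPM in TXNIP-/- and 169 CPM in WT LSECs, and the kinase gene Irak1 at 104 and 99.2 CPM. Of the 25 activators and regulators of NLRP3, 19 were tested and none called. They were led by the chaperone gene Hsp90ab1 (3354 against 3069 CPM) and the chloride channel gene Clic4 (495 against 456 CPM).

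Beside NLRP3, 17 other sensor genes were listed, of which 9 passed the filter and 3 had no count in any library. Nod1, a sensor of bacterial peptidoglycan, was at 33.2 ± 1.89 CPM against 41.5 ± 4.05 CPM (SD, n = 3; edgeR adjusted p = 0.394). Aim2, the sensor of cytosolic DNA, was at 15.4 against 15.0 CPM. Both were thus measured at higher levels than Nlrp3. Nlrc4, singled out after its values were seen, had 0, 0 and 1 counts in TXNIP-/- replicates 1 to 3 and 12, 14 and 14 in WT replicates 1 to 3. It encodes the platform that answers bacterial flagellin through NAIP proteins. Its genotypes did not overlap, with 1 of 41 counts from TXNIP-/- LSECs (2.44%, exact 95% confidence interval 0.0617% to 12.9%, which leaves out the spread between libraries). It passed the filter on low counts only through the WT libraries, and it was not called by edgeR (adjusted p = 0.0842).

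Among the executioners, the 7 other caspase genes were all tested and none was called. Casp8, which links death receptors to apoptosis, was at 50.4 ± 11.5 CPM against 57.3 ± 23.9 CPM (SD, n = 3). Of 10 genes for other gasdermins and for membrane rupture, only Ninj1, whose product tears the plasma membrane late in lytic death, passed the filter, and 5 had no count. Ninj1 was at 59.8 ± 1.68 CPM against 64.2 ± 8.57 CPM (SD, n = 3). The necroptosis genes (7 of 7 tested) and the ESCRT-III genes of membrane repair (9 of 10 tested) were measured and none was called. They were led by Tnfrsf1a (140 against 149.9 CPM) and Ripk1 (88.2 against 82.6 CPM), and by Chmp4b (340.2 against 355 CPM) and Chmp3 (187 against 191 CPM).

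Downstream, the receptor for IL-1 was more abundant than its ligands. Il1r1 was at 74.1, 61.6 and 60.3 CPM in TXNIP-/- replicates 1 to 3 and at 44.9, 44.9 and 54.8 CPM in WT replicates 1 to 3. Every TXNIP-/- library was above every WT library. The log2 fold change of 0.44 (SE 0.13) had an edgeR adjusted p of 0.138, and without WT replicate 3 it was 0.54 with an edgeR adjusted p of 0.0335. Il1rap, the co-receptor gene, was at 9.46 against 10.4 CPM, and the decoy ligand gene Il1rn had 8, 4 and 0 counts against 18, 8 and 0. Of the other IL-1 family cytokines and alarmins only Hmgb1 passed the filter (66.6 against 75.2 CPM), and 4 of the 7 had no count. Of 12 inhibitors 8 were tested and none was called. The most abundant were Hmox1 (410.3 against 421 CPM) and Nfe2l2 (397 ± 8.17 against 347 ± 6.11 CPM, SD, n = 3; edgeR adjusted p = 0.326).

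**Figure D4:**
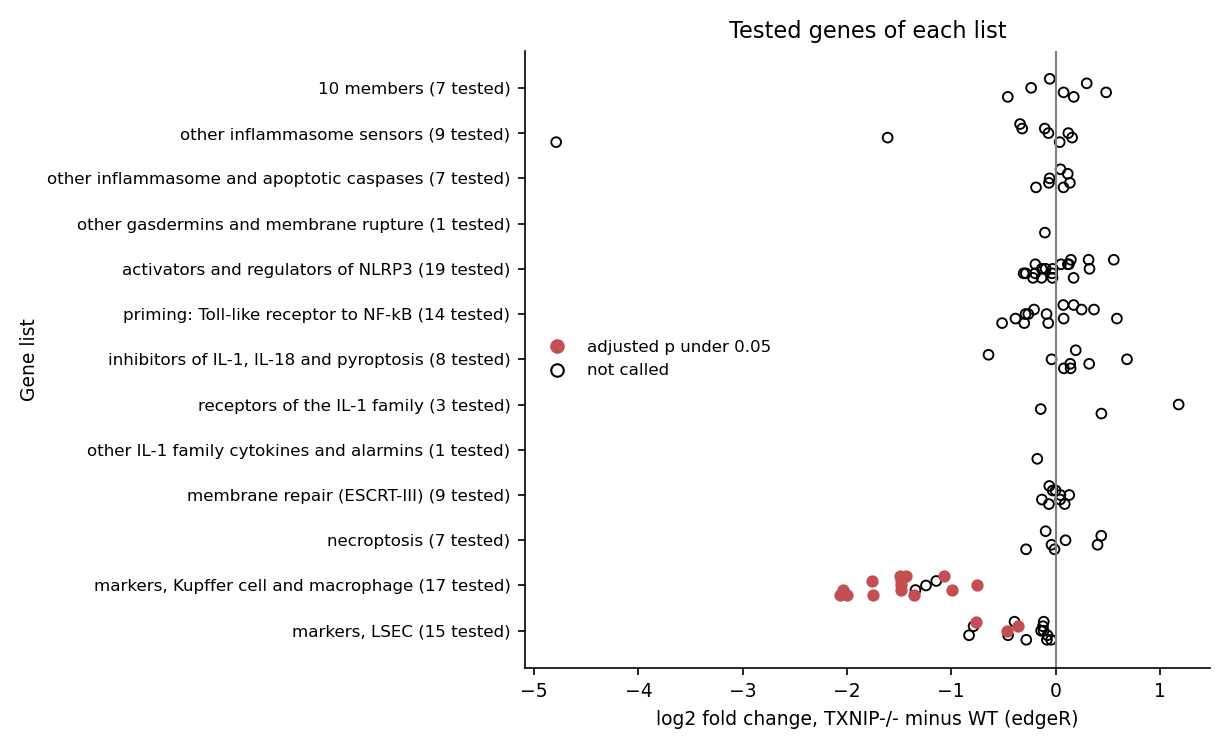
Log2 fold change of TXNIP-/- against WT for every tested gene of the members and of the 10 pathway lists, 1 point a gene. Rows for the Kupffer cell and macrophage markers and for the LSEC markers are drawn as well. Points of the members and pathway lists lie on both sides of 0, and none of these 85 genes was called at an edgeR adjusted p under 0.05. Filled points mark called genes, 14 in the Kupffer cell and macrophage row and 3 in the LSEC row.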

How the data were processed

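Polyadenylated RNA was profiled with QuantSeq, a single-end method that reads the 3′ ends of transcripts. The values deposited by the authors are whole-number counts per gene symbol, not normalized. They come from Bowtie2 alignments, of which both the unique and the multiple ones were counted by bedtools. The submitters' processing notes name build mm10. Tool versions, annotation and the use of strand are not given in the sources used here. Since multiple alignments were counted, genes with near-identical copies (the Naip, Gsdmc and Nlrp1 families) are uncertain. No molecular identifiers are named, so intervals and the floor of 3 counts (0.286 to 0.335 CPM) cover counting error only.

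Groups follow the genotype labels (3 against 3). In R 4.3.3, edgeR 4.0.16 was fitted to all genes with filterByExpr (11583 of 23282 rows kept; 44 rows repeat a symbol), TMM factors, glmQLFit and glmQLFTest with genotype as the term, and Benjamini-Hochberg adjustment over all genes. CPM used TMM-scaled library sizes. Standard errors came from the fold change and its F statistic. Members below the filter were tested by exact permutation of CPM, with exact binomial intervals for shares of counts. DESeq2 1.42.0, limma 3.58.1, other scalings and filters, thresholds, libraries left out and a replicate block were alternatives. The code was tested on simulated data.

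The members and lists were chosen with earlier results of these data known. All 10 members are named, with every called pathway gene, the 2 most abundant tested genes a list, Il1r1 and Il1rn, and, of the markers, Stab2, Lyve1, Clec4f, Adgre1, Cd68, S100a8, Cd3e and the most abundant of a list. Hepatocyte markers, led by Alb, summed to 37.7 to 55.1 CPM in TXNIP-/- and 39.2 to 39.8 CPM in WT libraries, and cholangiocyte markers, led by Sox9, to 2.99 to 6.25 and 1.85 to 6.13 CPM, with none called. Gene positions were looked up by symbol in GENCODE M21 (GRCm38), and promoters are from RefSeq on GRCm38.p6. Older symbols matched 6 list genes. A gene that this rule would name is not reported here.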

Additional observations from a re-analysis of the deposited data

How the results depend on the processing

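No member was called under any of the 18 alternatives. With a replicate block 0 members were called, and 108 genes overall in place of 179, of which 106 were shared. The block changed no call of a member or pathway gene, and of the markers named it ended the call of Stab2 (edgeR adjusted p = 0.135). Same-numbered libraries did not deviate together (correlations of -0.03, 0.02 and -0.05), so no pairing by number was seen. With so few libraries this cannot show that they were prepared separately. Counts of genes called overall were 346 with no filter on low counts, 111 with WT replicate 3 alone against the TXNIP-/- libraries, 89 to 367 when 1 library was left out (367 without WT replicate 3) and 1336 at an unadjusted p under 0.05. DESeq2 called 267 and limma-trend 184. With no normalization factors 36 genes were higher and 150 lower, in place of 66 and 113, and the median of all genes moved to -0.08.

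Members without overlap between genotypes numbered 1 of 7 in the reported values, 0 of 7 with no factors and 2 of 10 with no filter. They numbered 3 of 7 with WT replicate 3 alone and 1 to 3 of 7 or 8 when 1 library was left out. The share over all genes, 17.4% in the reported values, was not computed for these settings. Smaller groups overlap less often, so the counts from fewer libraries are no result about the members. Other pathway genes called numbered 0 in the reported values, 9 at an unadjusted p and 0 to 1 when 1 library was left out. Kupffer cell and macrophage markers called lower ranged from 11 to 17 over all alternatives. Members with an unadjusted p under 0.05 were Casp1 with no factors, with no filter and without WT replicate 3, P2rx7 without WT replicate 3, and Il18 by DESeq2 and without WT replicate 3 or TXNIP-/- replicate 3. In those edgeR fits Il18 passed the filter on low counts only through WT replicates 1 and 2. Its counts in TXNIP-/- replicates 1 to 3 were 0, 0 and 5, so these p-values give no support for a difference. Some uncalled members changed direction, and the cause was not tested. With WT replicate 3 alone, where all spread comes from the TXNIP-/- libraries, the log2 fold change was 0.22 for Casp1, 0.077 for Gsdmd and -0.032 for Il1a, and with no factors it was -0.014 for Casp4. When 1 library was left out it ranged from -0.13 to 0.26 for Casp4, -0.0405 to 0.74 for Il1a, -0.44 to 0.0573 for Gsdmd and -0.13 to 0.0147 for Nek7. Pycard (0.03 to 0.996) and P2rx7 (0.09 to 0.20) kept their direction in all 16 refits, with edgeR, DESeq2 or limma adjusted p of 0.668 to 0.988 and 0.341 to 0.818. The share of Il18 counts from TXNIP-/- LSECs was 0% to 17.9% when 1 library was left out and 41.7% with WT replicate 3 alone, and that of Nlrp3 was 6.45% to 50% and 75%. Equal levels would give 48.2% for 3 libraries against 3 only. That share rises when WT libraries are left out and falls when TXNIP-/- libraries are. It was not computed for these settings, so their shares cannot be set against 48.2%. Depth limits Nlrp3, Il18 and Il1b, whose 38, 45 and 3 counts in all support no fold.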

Other observations

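Several pathway genes had WT replicate 3 below the other WT libraries, as Casp1 had. They were picked after their values were seen and carry no test. Other pathway genes went the other way, such as Ninj1 (58.1, 60.6 and 74.0 CPM in WT replicates 1 to 3) and Il1r1 (44.9, 44.9 and 54.8 CPM). Casp8 was at 69.0 and 73.2 CPM in WT replicates 1 and 2 and at 29.8 CPM in WT replicate 3, below its TXNIP-/- range of 37.6 to 59.98 CPM. Gbp7, an interferon-induced GTPase gene, was at 46.5, 40.2 and 24.01 CPM in the WT libraries and at 27.2 to 34.0 CPM in the TXNIP-/- libraries. Ly96, the co-receptor of TLR4 for lipopolysaccharide, was at 35.7, 32.7 and 18.4 CPM in the WT libraries and at 16.6 to 25.0 CPM in the TXNIP-/- libraries. Aim2 was at 16.0, 19.9 and 9.096 CPM in the WT libraries.

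None of the 9 pathway genes with an unadjusted p under 0.05 was called after adjustment by edgeR, and the 5 not described so far follow, named for their p-values. Nfkb1 was at 61.6 ± 2.28 CPM in TXNIP-/- and 47.7 ± 5.86 CPM in WT LSECs (SD, n = 3; edgeR adjusted p = 0.232). Tnfaip3, the NF-κB feedback inhibitor A20, was at 14.7 ± 4.33 against 9.14 ± 2.16 CPM (edgeR adjusted p = 0.311). Ripk3, the necroptosis kinase gene, was at 23.8 ± 3.45 against 17.6 ± 2.13 CPM (edgeR adjusted p = 0.375). Cd14, the lipopolysaccharide co-receptor gene that macrophages also express, was at 25.5 ± 5.67 against 36.4 ± 3.71 CPM (edgeR adjusted p = 0.235). Il18bp, which encodes the soluble trap of IL-18, was at 6.79 ± 2.30 against 10.6 ± 1.5 CPM (edgeR adjusted p = 0.428).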
